A study of Mus musculus with 6 samples.

Results

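The RNAs described here were 9 long non-coding RNAs of mouse brain, namely Malat1, Neat1, Meg3, Rian, Mirg, Miat, Snhg11, Kcnq1ot1 and Peg13. They were taken by name, as the genes whose Ensembl identifier carries that symbol, and all 9 were found among the 21006 genes of the deposited files. The samples were prefrontal cortex from wild-type male C57BL/6 mice, aged 18 months by the age label, while the sample titles carry the mark 17M, which no source explains. The PND group (postoperative neurocognitive disorder, n = 3) was treated with isoflurane anesthesia and exploratory laparotomy, a surgical opening and inspection of the abdomen, and the control (CON) group (n = 3) received neither. Animals of both groups went through the same behavioral tests and were deeply anesthetized with isoflurane before perfusion and dissection, so the controls were not free of the anesthetic at the time of sampling. PND in this model combines anesthetic and operation, and the share of each cannot be told apart. Expression was given as FPKM, the number of sequenced fragments per kilobase of exon, scaled by depth.

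Long non-coding RNAs are transcripts that are not translated into a known protein. Many stay in the nucleus. Malat1 lies in nuclear speckles, where splicing factors gather, and Neat1 is the scaffold of paraspeckles, nuclear bodies that hold RNA-binding proteins. Meg3, Rian and Mirg are transcribed in the same direction from the maternal copy of the imprinted Dlk1-Dio3 domain and are hosts of small nucleolar RNAs and microRNAs. Kcnq1ot1 and Peg13 are transcribed from the paternal copy of their imprinted domains. Miat is a nuclear RNA prominent in neurons, and Snhg11 is a host of a small nucleolar RNA.

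In the GENCODE annotation (GRCm38), Malat1 (chromosome 19, 5795690 to 5802672, minus strand) and Neat1 (chromosome 19, 5824708 to 5845478, minus strand) are neighbours with 1 exon each. Meg3 (109541001 to 109571726), Rian (109603940 to 109661716) and Mirg (109729764 to 109749460) follow each other on the plus strand of chromosome 12. Miat lies on chromosome 5 (112213228 to 112229395, minus strand), and Snhg11 on chromosome 2 (158375638 to 158386145, plus strand), where the annotation gives it the type protein-coding. Kcnq1ot1 (chromosome 7, 143203458 to 143296549, minus strand) is 1 exon of 93092 bases that runs antisense to Kcnq1, and Peg13 (chromosome 15, 72805600 to 72810324, minus strand) lies within the gene Trappc9 on the same strand. Use of strand in counting was not stated, so reads of Kcnq1 exons cannot be told from Kcnq1ot1. Unspliced Trappc9 reads cannot be told from Peg13 with or without strand. The level of Kcnq1 itself was at most 0.108 FPKM in any animal.

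The sequences shown first are those that set Malat1 and Neat1 apart from ordinary messenger RNAs. Mature Malat1 and the long isoform of Neat1 end without a poly(A) tail, in an A-rich tract that pairs with a U-rich motif in a triple helix. Libraries made by removal of ribosomal RNA, as here, keep such ends. The 100 bases that end with the A-rich motif are given with the U-rich motif (TTTGCTTTT) and the A-rich motif (AAAGCAAAA) in capitals, read from the GENCODE transcripts 5′ to 3′ in DNA letters. They lie at chr19:5795982-5796081 for Malat1 and chr19:5824708-5824807 for Neat1, both on the minus strand of GRCm38.
Malat1: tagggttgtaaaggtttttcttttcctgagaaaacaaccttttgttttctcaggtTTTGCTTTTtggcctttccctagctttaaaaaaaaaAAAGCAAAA
Neat1: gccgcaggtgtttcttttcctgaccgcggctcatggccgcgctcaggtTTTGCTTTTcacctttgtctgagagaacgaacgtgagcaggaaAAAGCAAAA
The Neat1 transcript ends with this tract, and the annotated Malat1 transcript runs 292 bases past it. Of the longest transcripts of 20866 genes, searched on the transcribed strand, 5 (0.024%) hold both motifs within 100 bases in this order, those of Malat1, Neat1, Nbeal1, Rbp3 and Slc44a3. The match is a description of the letters.

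The RNAs of the Dlk1-Dio3 domain are hosts of microRNAs. On their strand, the gene body of Meg3 holds 2 of the microRNA genes in the RefSeq table used, that of Rian 3 and that of Mirg 14. The only 2 of the 26 mature microRNAs within Mirg that share a seed (bases 2 to 8, in capitals) are given from RefSeq (GRCm38.p6, plus strand) as examples of what this RNA carries. They lie at chr12:109735669-109735692 (miR-453) and chr12:109739132-109739152 (miR-496a-5p).
miR-453: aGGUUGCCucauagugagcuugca
miR-496a-5p: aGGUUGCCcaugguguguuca
The microRNAs themselves were not measured in these files.

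Base composition differs widely among the 9 RNAs, and the direction in which the animals deviated went with it, as shown further on. The GC content of the longest transcript was 35.8% in Rian, 40.3% in Kcnq1ot1, 42.5% in Malat1 and 44.8% in Snhg11. It was 47.3% in Neat1, 49.2% in Meg3, 51.6% in Peg13, 51.9% in Mirg and 55.1% in Miat. For the RNAs at both ends of this order, the 100-base window with the GC content nearest to that of the whole transcript is given with each G and C in capitals. The Rian window is at chr12:109646276-109646375 (plus strand) and the Miat window at chr5:112229170-112229269 (minus strand), both GRCm38.
Rian: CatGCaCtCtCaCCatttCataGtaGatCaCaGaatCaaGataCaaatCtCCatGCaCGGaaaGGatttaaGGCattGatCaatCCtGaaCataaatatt
Miat: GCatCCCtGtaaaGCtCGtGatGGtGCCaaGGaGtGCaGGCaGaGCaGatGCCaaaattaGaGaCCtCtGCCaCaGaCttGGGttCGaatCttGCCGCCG

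The levels of the 9 RNAs were first compared with each other. Malat1 was the highest, with a mean of 3969 FPKM over the 6 animals, and it ranked from 8 to 10 among all genes of a sample. It took between 1.57% and 1.87% of all FPKM of a sample. Snhg11 followed with a mean of 217.8 FPKM and ranks from 41 to 46, and Meg3 with 126.5 FPKM and ranks from 73 to 119. Rian (52.6 FPKM), Peg13 (39.1 FPKM), Kcnq1ot1 (19.3 FPKM) and Miat (14.5 FPKM) came next. Neat1 (3.801 FPKM) and Mirg (3.69 FPKM) were the lowest, with ranks between 4993 and 9825, so at the level of whole-gene FPKM these RNAs were not among the abundant transcripts. The FPKM of Neat1 is taken over all 20771 bases of the gene, and a level of its short isoform alone was not available from these values. Neighbours in this order had separate ranges over the animals except Rian and Peg13, Kcnq1ot1 and Miat, and Neat1 and Mirg, whose values overlapped.

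**Figure D1:**
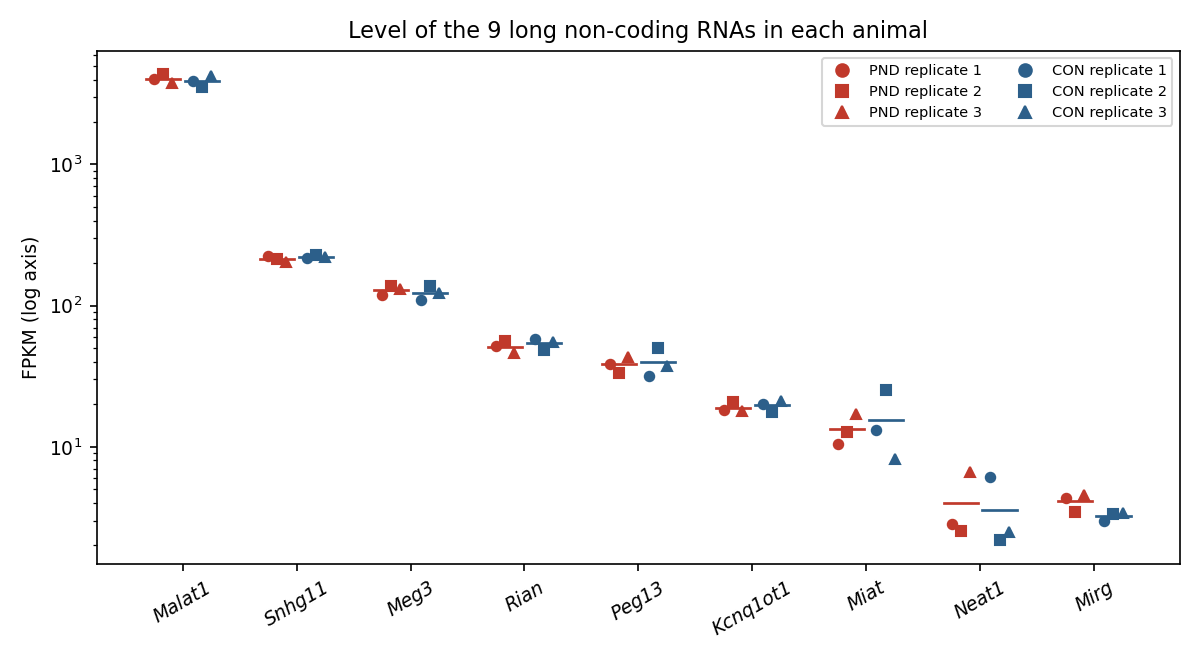
FPKM (log axis) of the 9 long non-coding RNAs in each of the 6 animals, in order of their mean level; symbols mark the replicates and bars the group means (n = 3). The PND and CON points lie together in every RNA except Mirg, whose 3 PND values are all above its CON values, and Neat1 and Miat show the widest spread.

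Each animal yielded an effective depth of 7210653 to 9383562 fragments, estimated from the steps of the low FPKM values. This corresponded to at least 199848 fragments of Malat1 in every animal, at least 13428 of Kcnq1ot1 and at least 163 of Mirg, the RNA with the fewest. The counting error was thus at most 7.83% for a value of Mirg, 5.22% for one of Neat1 and 0.224% for one of Malat1. The tissue label was checked with cell type markers. The summed FPKM of 8 excitatory cortical neuron markers lay between 213 and 411 over the 6 animals, and that of the blood markers (4 of 5 in the files) was at most 2.76. The 5 choroid plexus markers summed to 30.1 to 37.0 FPKM, nearly all of it from Enpp2 (31.3 FPKM in PND and 33.0 FPKM in CON), which oligodendrocytes also express. Kl and Kcnj13 passed the filter at under 1 FPKM, and Ttr and Folr1 did not pass it. The 6 striatal markers, which should be low in prefrontal cortex, summed to 80.4 to 187.6 FPKM, and their part in the results was not tested.

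To ask whether anesthesia and surgery were followed by a change in these RNAs, PND was compared with CON with limma over 18185 genes. None (0) of the 9 RNAs passed an unadjusted p of 0.05, a threshold that 3.13% of all genes tested passed. None (0) passed the study's cut-off (absolute log2 fold change above 1 and unadjusted p below 0.05), which 1.33% of genes passed, nor an adjusted p of 0.05, which 0.011% of genes passed. Of the 9 log2 fold changes, 4 were above 0 and 5 below, with a median of -0.03 beside 0.01 over all genes tested. Leaving out CON replicate 2 raised the number of genes past the cut-off from 241 to 402. The animals of the groups did not overlap for 1 of the 9 RNAs, Mirg, and this was so for 7.66% of all genes. In bulk tissue, fewer cells of a type and less RNA per cell cannot be told apart.

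Malat1 had 4028, 4372 and 3755 FPKM in PND replicates 1 to 3 and 3923, 3516 and 4223 FPKM in CON replicates 1 to 3. The highest and the lowest animal were thus PND replicate 2 and CON replicate 2, with a ratio of 1.24, and the remaining animals of both groups were mixed. The mean of PND was 4052 ± 309 FPKM (SD, n = 3) and that of CON 3887 ± 355 FPKM. The log2 fold change was 0.06 (SE 0.13, unadjusted p = 0.65, adjusted p = 0.9999 by limma). Its 95% interval ran from 0.846-fold to 1.29-fold, so a change by the study's factor in either direction lay outside it.

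Neat1 varied more between animals than Malat1 did. It stood at 2.85, 2.54 and 6.67 FPKM in the PND animals and at 6.07, 2.17 and 2.51 FPKM in the CON animals. The animals fell into 2 levels, with PND replicate 3 and CON replicate 1 more than 2-fold above the other 4, and each group held 1 high animal. The values corresponded to 1300 and 942 fragments in the high animals and to 367 to 524 in the others, a gap far larger than the counting error. The mean of PND was 4.02 ± 2.30 FPKM and that of CON 3.58 ± 2.16 FPKM. On the log2 scale PND was higher by 0.18 (SE 0.48), with an unadjusted p of 0.72 by limma. The 95% interval from 0.519-fold to 2.46-fold includes an increase of the size of the study's cut-off. A decrease of that size lay just outside it, as in most other fits of all animals. It lay inside the interval without the intensity trend and with the replicate block (lower bounds of -1.10 and -1.02 on the log2 scale). Without PND replicate 3 the log2 fold change was -0.25, and without CON replicate 1 it was 0.62. In 0 of 10 lists of cell type markers were the same 2 animals the highest. Any given 2 animals are seldom the highest 2 of a list, and the part of cell composition was not tested. Because of the 2 levels, no correlation of Neat1 with Malat1 over the animals is given. As a share of Malat1, Neat1 stood at 0.178% in PND replicate 3 and 0.155% in CON replicate 1, and between 0.0582% and 0.0707% in the others.

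The 3 maternally expressed RNAs of the Dlk1-Dio3 domain lie in 1 tandem array, and their levels were lower along it, from 126.5 FPKM for Meg3 to 52.6 for Rian and 3.69 for Mirg. Meg3 stood at 118.6, 138.4 and 131.2 FPKM in the PND animals and at 109.2, 138.4 and 123.3 FPKM in the CON animals. The values of both groups interleaved, and the lowest animal was CON replicate 1. Its log2 difference between groups was 0.07 (SE 0.12, unadjusted p = 0.58 by limma), with a 95% interval from 0.864-fold to 1.27-fold.

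Rian, a host of box C/D small nucleolar RNAs, stood at 51.6, 56.0 and 46.0 FPKM in the PND animals and at 58.2, 48.3 and 55.6 FPKM in the CON animals. Its lowest animals were PND replicate 3 and CON replicate 2, one of each group. PND differed by -0.08 on the log2 scale (SE 0.12, unadjusted p = 0.53 by limma), with a 95% interval from 0.780-fold to 1.15-fold.

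Mirg, the microRNA-rich end of the array, stood at 4.35, 3.47 and 4.59 FPKM in the PND animals and at 2.99, 3.33 and 3.42 FPKM in the CON animals. All PND animals lay above all CON animals, but PND replicate 2 exceeded CON replicate 3 by less than the counting error of either. The group levels were 4.13 ± 0.587 FPKM (SD, n = 3) and 3.25 ± 0.224 FPKM. On the log2 scale PND was higher by 0.33 (SE 0.17), which did not pass the threshold (unadjusted p = 0.090, adjusted p = 0.9999 by limma). The exact permutation test over the animals, two-sided, gave p = 0.1, the smallest that 3 against 3 allows. Without PND replicate 2 the log2 fold change was 0.45 with an unadjusted p of 0.0408 (adjusted p = 0.998 by limma). When every sample was scaled to the same sum of FPKM, the groups of Mirg overlapped, as did those of the other 8 RNAs, and 7.66% of all genes did not overlap under this scaling either. Scaled to Meg3 in the same animal, Mirg amounted to 3.67%, 2.51% and 3.49% in PND and to 2.74%, 2.40% and 2.78% in CON, so by this ratio PND replicate 2 lay among the CON animals. Of the cell type markers, the summed level of the 5 endothelial genes (Cldn5, Flt1, Pecam1, Slco1a4 and Ly6c1, none at 0 on average) was likewise separate between the groups, at 26.2 to 34.5 FPKM in PND and 22.9 to 25.7 FPKM in CON, with 4 of the 5 higher and 1, Ly6c1, past an unadjusted p of 0.05 (0.00568 by limma, adjusted p = 0.9999). Its part in the Mirg values was not tested.

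The RNAs of the array did not detectably vary together over the 6 animals. Pearson's r was -0.51 for Meg3 and Rian (Spearman's rho -0.49), 0.19 for Meg3 and Mirg (rho 0.14) and -0.69 for Rian and Mirg (rho -0.60). The exact permutation p-values of r were 0.292, 0.7 and 0.167, and those of rho were 0.356, 0.803 and 0.242. Adjusted over the 4 pairs computed, they were 0.583, 0.7 and 0.583 for r and 0.711, 0.919 and 0.711 for rho (exact permutation tests, Benjamini-Hochberg). Without the 2 animals farthest from the median of the first RNA, r was 0.053, -0.27 and -0.99, over 4 animals. The sign of the first 2 pairs turned with GC correction, to 0.50 for Meg3 and Rian and to -0.17 for Meg3 and Mirg, and r of Rian and Mirg weakened to -0.20 (-0.31 with median centring). The Rian level per Meg3 ranged from 34.9% in CON replicate 2 to 53.3% in CON replicate 1, so the widest difference in this ratio was within the CON group.

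Snhg11 was the steadiest of the 9 RNAs. It stood at 223.3, 212.6 and 202.9 FPKM in the PND animals and at 218.3, 227.2 and 222.6 FPKM in the CON animals, a ratio of 1.12 between the highest and the lowest animal. The 2 lowest animals were both PND (replicates 2 and 3), while PND replicate 1 lay among the CON animals. The difference on the log2 scale was -0.07 (SE 0.09, unadjusted p = 0.48 by limma) with a 95% interval from 0.829-fold to 1.10-fold.

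The 2 paternally expressed RNAs did not pass the threshold either. Kcnq1ot1, which silences genes of the Kcnq1 domain in cis, stood at 18.2, 20.8 and 17.8 FPKM in the PND animals and at 20.0, 17.7 and 21.1 FPKM in the CON animals. The groups covered nearly the same range. By limma, the difference was -0.05 on the log2 scale (SE 0.12, unadjusted p = 0.68), with a 95% interval from 0.793-fold to 1.17-fold. Peg13 stood at 38.4, 33.4 and 43.6 FPKM in the PND animals and at 31.8, 50.5 and 37.1 FPKM in the CON animals. The CON animals held both the highest and the lowest value. For Peg13 the difference was -0.03 on the log2 scale (SE 0.19, unadjusted p = 0.87 by limma), with a 95% interval from 0.723-fold to 1.33-fold.

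Miat stood at 10.4, 12.8 and 17.1 FPKM in the PND animals and at 13.1, 25.3 and 8.13 FPKM in the CON animals. CON replicate 2 was 3.10-fold above CON replicate 3, and the PND animals all lay between these. The groups differed by -0.08 on the log2 scale (SE 0.39, unadjusted p = 0.85 by limma), and the 95% interval from 0.503-fold to 1.79-fold is wide. Without CON replicate 2 the log2 fold change was 0.35, in the opposite direction.

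**Figure D2:**
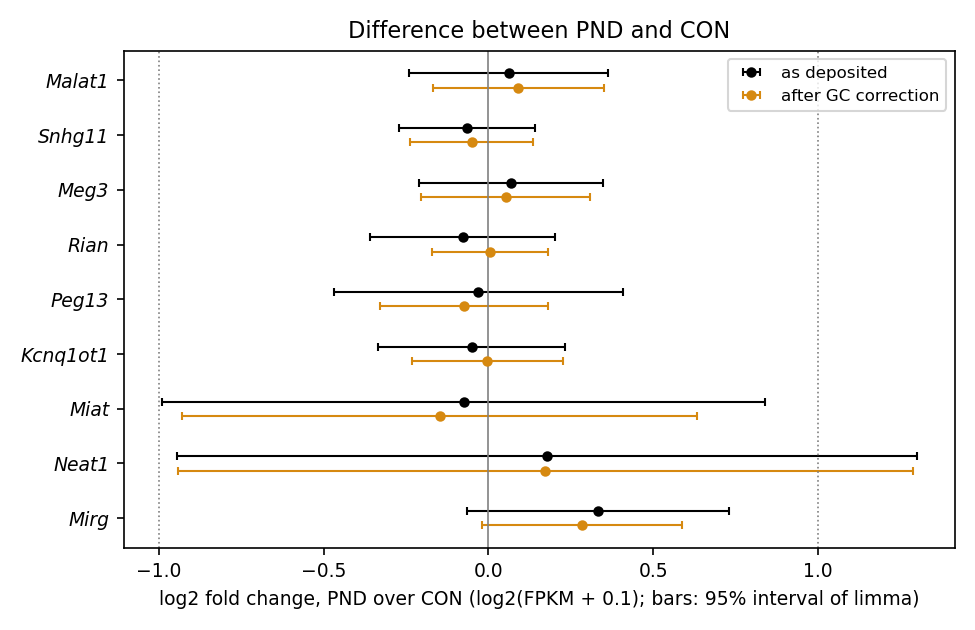
Log2 fold change of PND over CON for the 9 RNAs on the log2(FPKM + 0.1) scale, with the 95% interval of limma (3 against 3 animals), as deposited (black) and after GC correction (orange); dotted lines mark the study's cut-off of 1. All intervals include 0, and those of Neat1 and Miat are the widest.

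The spread between animals differed among the 9 RNAs. The SD within groups was 0.05 on the log2 scale for Snhg11, 0.12 for Malat1, 0.13 for Kcnq1ot1, 0.14 for Rian, 0.15 for Meg3 and 0.16 for Mirg. It was 0.28 for Peg13, 0.63 for Miat and 0.76 for Neat1. Its median was 0.17 for the 3493 genes that averaged 10 FPKM or more, so 6 RNAs varied less and 3 varied more than the median of these genes.

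The direction in which the animals deviated went with GC content. Over all genes with at least 1 FPKM, the decile of highest GC content (median 58.5%) had a median log2 deviation, from the mean of each gene over the 6 animals, of 0.37 in PND replicate 3 and 0.49 in CON replicate 2. It stood at -0.30 in PND replicate 2 and -0.56 in CON replicate 1. Of the 4 RNAs under 45% GC, Rian, Kcnq1ot1 and Malat1 were, on average, lower in CON replicate 2 and PND replicate 3 than in CON replicate 1 and PND replicate 2. Snhg11 showed no such pattern, with averages of -0.02 and -0.01, and CON replicate 2 was its highest animal. All 4 RNAs over 49% GC (Meg3, Peg13, Mirg and Miat) were on average higher there. Rian averaged -0.15 in the first pair of animals and 0.12 in the second, and Peg13 averaged 0.28 and -0.25. Each pair holds 1 animal of each group, so this pattern ran across PND and CON.

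**Figure D3:**
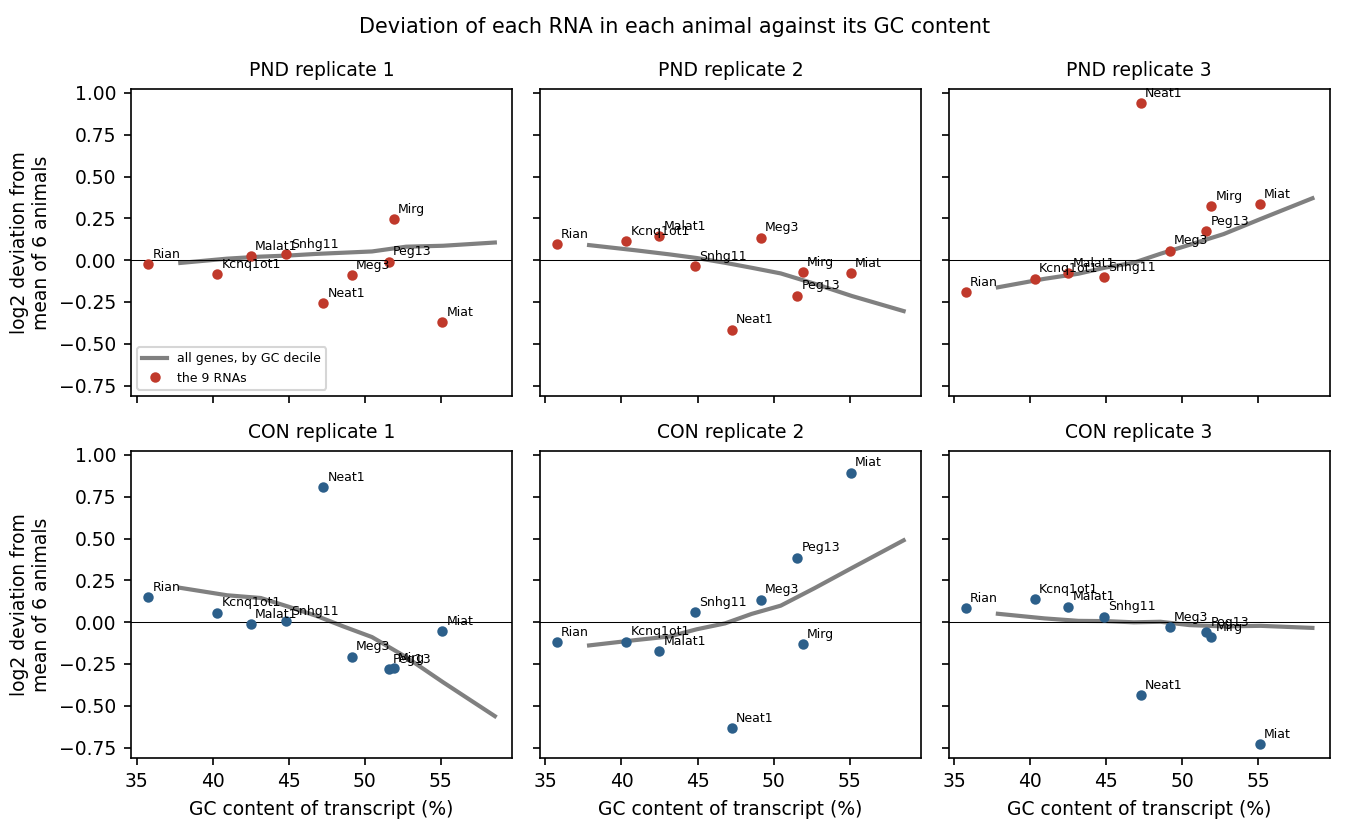
Log2 deviation of each RNA from its mean over the 6 animals (vertical axis) against the GC content of its longest transcript (horizontal axis, %), in 1 panel per animal; the grey line is the median deviation of all genes with at least 1 FPKM, by decile of GC content. The line rises in PND replicate 3 and CON replicate 2 and falls in PND replicate 2 and CON replicate 1, and Neat1 and Miat lie farther from it than the other RNAs in several animals.

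The deviation fitted to GC content over all genes was then subtracted in each sample. The SD over the 6 animals became smaller in 8 of the 9 RNAs. It fell from 0.13 to 0.043 for Rian and from 0.25 to 0.13 for Peg13. It was 0.69 both before and after for Neat1, and it went from 0.56 to 0.48 for Miat, so the spread of these RNAs was nearly as large without the part that went with GC content. For Snhg11 it was 0.059 before and 0.068 after. After the correction 0 RNAs had an unadjusted p below 0.05 by limma, beside 4.32% of all genes in the same fit, and the smallest was 0.0631, for Mirg with a log2 fold change of 0.28. The log2 fold change of Rian moved to 0.0043 and that of Kcnq1ot1 to -0.0035.

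**Figure D4:**
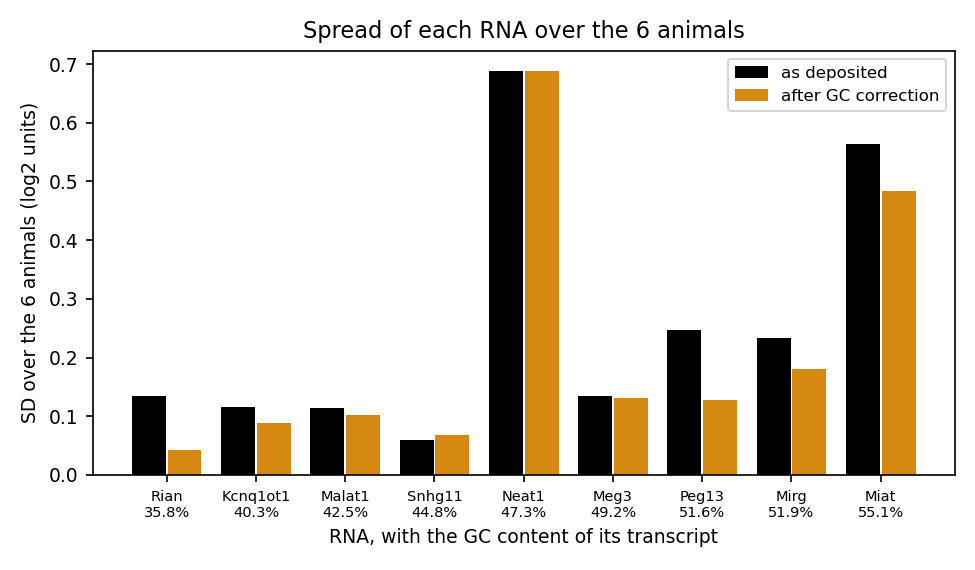
SD of each RNA over the 6 animals (log2 units, bars from 0), as deposited (black) and after GC correction (orange), ordered by GC content. Rian drops from 0.13 to 0.043 and Peg13 from 0.25 to 0.13, whereas Neat1 remains at 0.69.

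The genes next to the 9 RNAs were examined as well. In the Dlk1-Dio3 domain the paternally expressed Dlk1 and the deiodinase gene Dio3 were below 0.1 FPKM on average, and the values of Rtl1 were 0.167 ± 0.0643 FPKM for PND against 0.140 ± 0.0545 FPKM for CON. Begain, at the edge of the domain, had 4.05 ± 1.37 against 3.91 ± 1.46 FPKM, and Wars had 5.55 ± 1.60 against 5.61 ± 1.87 FPKM. Meg3 and Rian were thus above these genes in level, whereas Mirg was of the same order as Begain and Wars. In the Kcnq1 domain, the cell cycle inhibitor gene Cdkn1c had 1.70 ± 0.505 against 1.91 ± 0.0729 FPKM, and Cd81 had 15.9 ± 4.07 against 14.3 ± 1.33 FPKM. Around Peg13, Trappc9 had 3.84 ± 0.778 against 3.63 ± 1.45 FPKM, Kcnk9 5.67 ± 1.61 against 6.00 ± 2.82 FPKM, Chrac1 0.748 ± 0.189 against 1.14 ± 0.575 FPKM and Ago2 14.96 ± 0.504 against 14.3 ± 0.536 FPKM. Peg13 was thus over 10-fold above Trappc9, within which it lies. Around Malat1 and Neat1, Ltbp3 had 1.95 ± 0.182 against 1.69 ± 0.670 FPKM. Frmd8 had 0.572 ± 0.124 against 0.559 ± 0.142 FPKM and Slc25a45 0.189 ± 0.132 against 0.215 ± 0.0183 FPKM. Ralgapb, next to Snhg11, had 14.9 ± 1.35 against 15.5 ± 2.03 FPKM. Phlda2, Slc22a18, Tspan32 and Adig were not matched in the files. Among the 14 neighbours tested by limma, 0 reached an unadjusted p of 0.05, beside 3.13% of all genes. The smallest, 0.268, was that of Chrac1 (log2 fold change -0.47).

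A list of 40 other long non-coding RNAs of brain was compared in the same way, and 30 passed the filter. None (0) of the 30 had an unadjusted p below 0.05 by limma, beside 3.13% of all genes, and 14 were above and 16 below a log2 fold change of 0, with a median of -0.00085. The smallest p in this list was that of Snhg3, with 1.71 ± 0.430 against 1.22 ± 0.447 FPKM (unadjusted p = 0.158 by limma), followed by Snhg8, Snhg6 and Lncpint with log2 fold changes of -0.34, -0.52 and 0.15. The groups did not overlap for 1 of the 30, beside 7.66% of all genes. Among the RNAs at levels like those of the 9, Snhg14, the imprinted transcript antisense to Ube3a, had 40.5 ± 4.85 against 42.6 ± 4.91 FPKM, and Tug1 had 14.9 ± 0.423 against 15.3 ± 2.00 FPKM. The GC-rich Gm26917 (69.1% GC) ranged from 26.0 FPKM in CON replicate 1 to 219.8 FPKM in CON replicate 2, in the direction in which GC-rich genes deviated in these animals.

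The proteins that gather on Malat1 and Neat1 in speckles and paraspeckles were examined through their genes. Of 28 such genes, all tested, 0 had an unadjusted p below 0.05 by limma (3.13% of all genes did), 12 were above and 16 below 0, and the median log2 fold change was -0.02. Sfpq, a paraspeckle core protein gene, averaged 56.4 ± 3.88 FPKM in the PND animals against 59.4 ± 6.88 FPKM in the controls, and its partner Nono had 18.0 ± 0.514 against 19.4 ± 1.77 FPKM. The smallest p was that of Hnrnpm, with 16.5 ± 1.64 against 19.6 ± 0.947 FPKM (log2 fold change -0.26, unadjusted p = 0.0627, adjusted p = 0.9999 by limma). The group values of Hnrnpm did not overlap, and this was so for 2 of the 28 genes, beside 7.66% of all genes. Next by p were the splicing factor genes Srsf3, Qk and Srsf5, with log2 fold changes of -0.18, -0.18 and -0.15.

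The genes most like Malat1 and Meg3 were looked for among the 6134 genes that averaged 5 FPKM or more, by the root mean square difference of the log2 deviations over the 6 animals. For Malat1 these were Cnot4 (0.022), Phf10 (0.034) and Efcab2 (0.036), with a GC content of 37.0%, 42.4% and 41.5%. For Meg3 they were Setd7 (0.036), Hnrnpul1 (0.051) and Nf2 (0.054). With only 6 animals, small differences are found for many genes, and the values are a description.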

How the data were processed

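RNA from the prefrontal cortex of 3 PND and 3 CON mice, 1 animal per file, was depleted of ribosomal RNA and sequenced. The deposited values are FPKM. Per the study's methods, the authors filtered reads with Seqtk, aligned them with HISAT2, counted fragments with StringTie, scaled them by TMM and divided by exon length. The build, the annotation and the use of strand were not given in the sources used here for this table (the submitters' processing notes list Bowtie 0.12.2, mm8 and mm9, with no role). Groups came from the treatment labels and replicate numbers from the titles. Symbols were matched for 20866 of 21006 identifiers, and coordinates, exon length and GC content of the longest transcript came from GENCODE M21 (GRCm38).

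The groups were tested with limma 3.58.1 (R 4.3.3; lmFit and eBayes with an intensity trend, two-sided) on log2(FPKM + 0.1), over the 18185 genes that averaged 0.1 FPKM or more, with Benjamini-Hochberg adjustment over all of them. This scale understates changes of low genes. For GC correction, the loess fit (span 0.3) of the log2 deviation on GC content was subtracted in each sample. Fragments were estimated from the steps of FPKM times exon length, where 41.6% to 44.8% of low values lay within 0.05 of a whole number, so they are approximate, and their errors cover counting only. The fit was also run on simulated data without a GC trend, with changes far larger than those of the RNAs described here. That run therefore does not speak to differences of their size.

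The 9 RNAs and the gene lists were chosen with earlier results of these data known. Genes named outside the 9 were the listed neighbours, except 1 that is not reported here, and, from the other lists, those with the smallest p (up to 4 a list), with Snhg14, Tug1, Gm26917, Sfpq and Nono added after their values were seen. P-values rest on the spread between 3 animals per group. Those of limma, and its intervals, also draw on the spread of all genes at a similar level.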

Additional observations from a re-analysis of the deposited data

How the results depend on the processing

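The 9 RNAs were refitted under 18 alternatives each. Direction and side of the threshold held in 149 fits, the direction turned in 12, and 1, for Mirg without PND replicate 2, passed an unadjusted p of 0.05. The smallest adjusted p was 0.828. Quantile normalization gave Malat1 a log2 fold change of -0.14, and GC correction gave Rian 0.0043, with and without the replicate block. The other turns came from leaving out an animal, over which the log2 fold change ranged from -0.0093 to 0.12 for Malat1, -0.25 to 0.62 for Neat1, -0.017 to 0.15 for Meg3, 0.25 to 0.45 for Mirg, -0.46 to 0.35 for Miat, -0.12 to 0.0041 for Kcnq1ot1 and -0.18 to 0.15 for Peg13. It turned without CON replicate 2 for Malat1, Neat1, Miat and Peg13, without PND replicate 3 for Neat1, PND replicate 1 for Miat, PND replicate 2 for Peg13, CON replicate 1 for Meg3 and CON replicate 3 for Kcnq1ot1. The cause was not tested. With every sample scaled to the same sum of FPKM, 0 of the 9 RNAs had groups that did not overlap, beside 1393 of 18185 genes (7.66%) under the same scaling.

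Over all genes, the number past the study's cut-off was 241 (153 higher, 88 lower), and 25 at a pseudocount of 1. It was 59 in a refit of only the genes that averaged 1 FPKM or more. Without an animal it was 240 to 402 (402 without CON replicate 2). With quantile normalization the split was 124 higher and 116 lower. There were 569 genes (315 higher, 254 lower) under an unadjusted p of 0.05. This number was 331 in the refit of only the genes that averaged 1 FPKM or more. Without an animal it was 407 to 974 (974 without CON replicate 2). With every sample scaled to the same sum the split was 216 higher and 318 lower. Of 2 genes with an adjusted p below 0.05, 0 were left with a pseudocount of 1 (579 genes had an unadjusted p below 0.05), no filter (681), either scaling to a common sum (534 and 568), median centring (549) or quantile normalization (581), and 0 to 4 were found without an animal. Median centring turned r to 0.23 for Meg3 and Rian and to -0.12 for Meg3 and Mirg, and GC correction turned these to 0.50 and -0.17.

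Whether the shared replicate numbers pair the animals was not stated, and no clear likeness between same-numbered animals was seen. Same-numbered animals correlated at -0.049, -0.45 and 0.027 in their deviations from the group mean, and 1 of the 6 correlated best with its own number. With the replicate block 361 genes had an unadjusted p below 0.05 and 0 an adjusted p below 0.05. With GC correction and the replicate block these were 644 and 0. The block left the 9 RNAs above 0.05, with 0.158 for Mirg.

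With 3 animals per group, the precision rests on the spread between animals, and for Mirg the counting error (up to 7.83%) was of similar size to that spread. For Neat1 and Miat the 95% intervals reach 2.46-fold and 1.79-fold.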

Other observations

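The long non-coding RNAs as a class were not limited to the 9. GENCODE M21 lists 4248 genes of the files as long non-coding RNA genes, and 3333 of them passed the filter on low values. Of these, 109 were higher and 80 lower in PND at an unadjusted p below 0.05 in limma (5.67%, beside 3.13% of all genes tested), and 0 had an adjusted p below 0.05. The study's cut-off was passed by 71 higher and 32 lower genes of the class (3.09%, beside 1.33% of all genes). Among those with a mean of at least 1 FPKM, the cut-off was passed by 5 higher and 3 lower genes of 1593 (0.502%), beside 0.492% of all genes at this level. An unadjusted p below 0.05 in limma was reached there by 36 higher and 48 lower genes of the class (5.27%). Over all genes at this level it was reached by 170 higher and 174 lower genes (2.78%). The share of the class was thus above that of all genes at this level. The class was not counted under other scalings, and neither the difference in share nor the direction was tested. The part of low levels in these shares was not tested.

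The genes with deviations most like those of Neat1 were listed after its values were seen. The nearest of 6134 genes was Rnf111, which encodes a ubiquitin ligase of TGF-beta signaling, with a root mean square difference of 0.20 on the log2 scale. Rnf111 stood at 14.99 FPKM in PND replicate 3 and 14.3 FPKM in CON replicate 1, and at 6.76 to 7.79 FPKM in the other 4 animals. The next were Gng13 (0.27) and Ndufa5 (0.29). No test was made of this likeness.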
